A study of Mus musculus with 6 samples.

Results

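The 10 genes described here encode chains of cytokine receptors: Il7r, Il2ra, Il2rb, Il2rg, Il4ra, Il21r, Il6ra, Il6st, Ifngr1 and Il18r1. They were listed by symbol and are 10 of the 56246 genes in the expression table. In the splicing tables they account for 117 of 65785 events. RNA was taken from CD4+ T cells of spleen and lymph nodes of 6 young adult male mice, 3 per condition, in a study that asked what CD2BP2/U5-52K, a protein of the U5 snRNP of the spliceosome, does in T cells. The 3 cKO libraries carry the genotype U5-52K f/f CD4-Cre tg, in which Cre is driven by the CD4 promoter and removes the floxed gene in developing thymocytes. The 3 Control libraries mix genotypes, since CTRL_1.2 and CTRL_3.4 are wt/f with the CD4-Cre transgene and CTRL_5.6 is f/f without it. Where 3 values of a gene follow each other below, they are given for Control as CTRL_1.2, then CTRL_3.4, then CTRL_5.6, and for cKO as KO_7.8, then KO_9.10, then KO_11.12. Cells were sorted as CD4+ and CD8-, so naive, memory and regulatory CD4+ T cells were sequenced together. In such bulk samples fewer cells of a type and less RNA per cell cannot be told apart.

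Cytokine receptors are assembled from chains that are shared between cytokines. The common gamma chain, encoded by Il2rg, pairs with the alpha chain of the IL-7 receptor (Il7r), the IL-4 receptor (Il4ra) or the IL-21 receptor (Il21r), and with Il2rb to form the IL-2 and IL-15 receptors. Il2ra (CD25) adds high affinity for IL-2 and is carried constantly by regulatory T cells. Il6ra binds IL-6 and signals through gp130, encoded by Il6st, which several other cytokines of the IL-6 family also use. Ifngr1 is the ligand-binding chain for interferon gamma and works with Ifngr2, and Il18r1 binds IL-18 and works with Il18rap. All but the IL-18 receptor signal through JAK kinases and STAT factors. In resting CD4+ T cells IL-7 is known as the main survival signal, and the sharing of chains makes the receptors compete for partners.

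Cd2bp2 itself was at 2624, 2602 and 2612 normalized counts in the Control libraries. It was at 884, 874 and 738 in the cKO libraries, 31.8% of the Control mean (log2 fold change -1.65, SE 0.11, adjusted p 0.00137, limma). All 7 tested genes of CD4 T cell identity, such as Cd4 and Lck, were abundant in every library. Reads in genes numbered 56995121 to 75606222 in Control and 69981159 to 82286366 in cKO. Of the 6 libraries 2 stood apart from the rest. In KO_7.8 the summed level of 15 myeloid marker genes was 78499 normalized counts, against 27268 to 37977 in the other 5 libraries, and that of 15 cell cycle genes was 50839, against 24982 to 29590. In CTRL_5.6 the summed level of 12 regulatory T cell markers was 78729, against 116640 to 157290 in the others. CTRL_5.6 also had the highest summed erythroid (4063), B cell (14973) and CD8 T cell (1571) markers of the 6 libraries. The erythroid sum was 3076 in KO_7.8. As CTRL_5.6 is the only Control library without Cre, its genotype and these traits cannot be told apart. Between the conditions, summed B cell markers were at 10452 to 14973 in Control and 4526 to 8571 in cKO, summed NK cell markers at 16094 to 21208 and 28124 to 33318, summed dendritic cell markers at 3443 to 5014 and 5728 to 20247, and 15 genes of activated and memory T cells at 134010 to 175430 and 224460 to 241310. The limma fit called none of the 10 tested B cell markers (9 at an unadjusted p under 0.05, all with negative fold changes). It called none of 11 myeloid markers (1) and none of 7 NK cell markers (4). Over all tested genes 16.7% had an unadjusted p under 0.05 by limma. For the same 3 lists edgeR called none, and DESeq2 called 4, 0 and 3, against 7.81% of all tested genes. The part of these marker differences in the values below was not tested, except where values without KO_7.8 and CTRL_5.6 are given.

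Levels of different genes can be set side by side only per length, here as normalized counts per kilobase of the merged exons of each gene. Il2rg was the most abundant of the 10 chains in every library, at 37520 ± 4030 per kilobase in Control and 42250 ± 425 in cKO (SD, n = 3), more than 99.6% of the genes tested. Il18r1 was the lowest in every library, at 333 ± 52.4 and 436 ± 94.8. RNA of the common gamma chain was thus more abundant per kilobase than that of each partner with which it is shared.

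Between those extremes, Ifngr1 came next in the Control means at 7435 ± 557 per kilobase, and was 12070 ± 1740 in cKO. Il7r (6391 ± 640), Il2rb (6258 ± 2100) and Il21r (5213 ± 608) followed in Control. Il2rb overlapped each of the other two, while Il7r was above Il21r in every library. Il6st (3328 ± 491), Il2ra (3211 ± 1110), Il4ra (3186 ± 400) and Il6ra (2809 ± 68) formed a lower set whose order changed from library to library. In the cKO means Il2ra stood at 3131 ± 642, Il4ra at 3290 ± 856, Il6st at 2371 ± 418 and Il6ra at 2356 ± 295. Apart from Il18r1, each chain was more abundant per kilobase than at least 86.9% of the tested genes.

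None of the 10 chains passed an adjusted p of 0.05 by limma, the test fitted over 11001 genes, of which 107 (0.973%) passed. At an unadjusted p under 0.05 there were 4 of the 10 (Ifngr1, Il6st, Il6ra and Il7r), against 16.7% of all tested genes. edgeR on the recovered whole reads called 0 of the 10, with 1.02% of all tested genes called. It had 3 at an unadjusted p under 0.05, a count for which the share of all tested genes was not worked out. DESeq2 on the same reads called 1, Ifngr1, with 7.81% of all tested genes called. The conditions did not overlap for 3 of the 10 chains, with cKO above Control for Ifngr1 and Il7r and below it for Il6ra. Over all tested genes 24.1% did not overlap, 12.6% with cKO above and 11.5% with cKO below. The log2 fold change was positive for 8 of the 10 chains and for 5695 of the 11001 tested genes, with medians of 0.16 and 0.01. Of the 8, Il2ra, Il4ra and Il2rb changed sign when the processing or the libraries were changed.

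**Figure D1:**
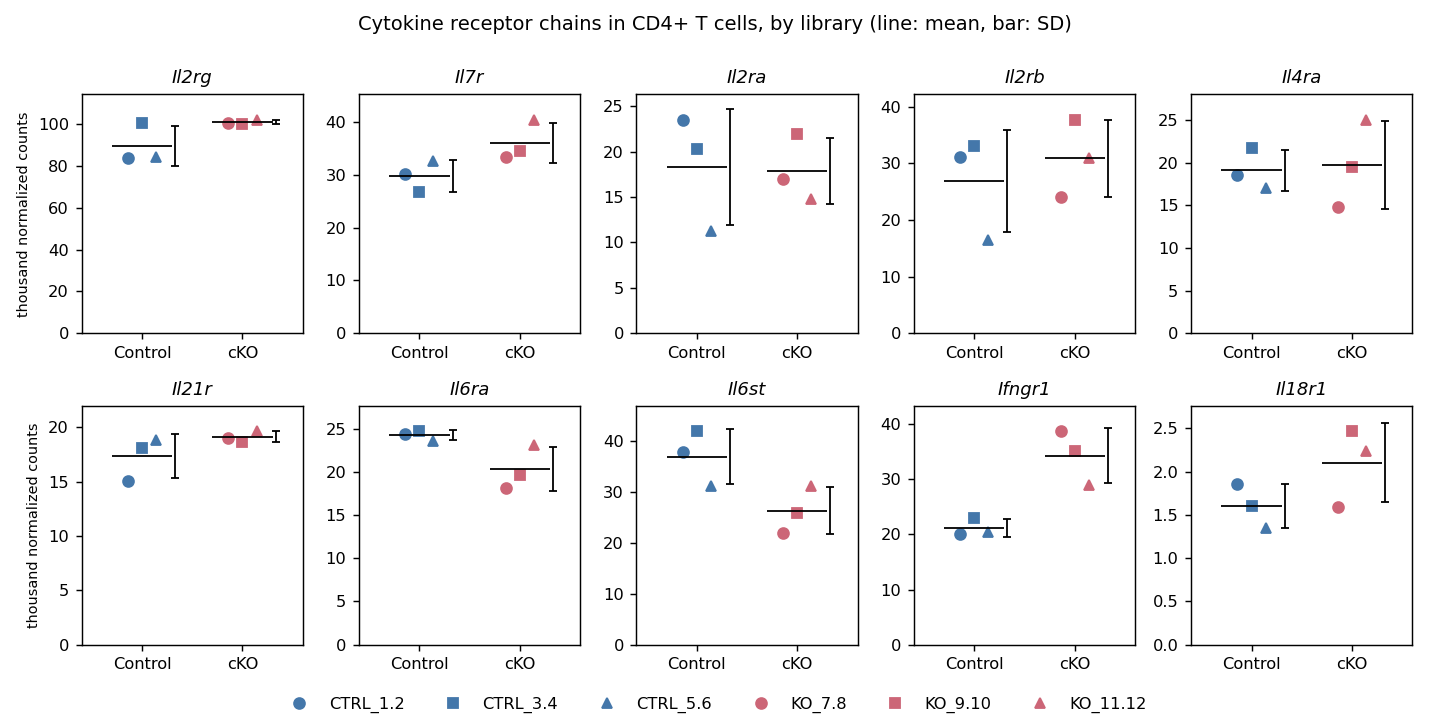
Normalized counts on the vertical axis of the 10 receptor chains in each of 6 libraries, with blue for Control, red for cKO, 1 marker shape per library, a line at the mean and a bar of 1 SD. For Ifngr1 and Il7r the cKO points are all above the Control points, for Il6ra all below, and CTRL_5.6 is the lowest library for Il2ra and Il2rb.

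Il2rg, the shared gamma chain, was at 83728, 100650 and 84276 normalized counts in the Control libraries. In the cKO libraries it was at 100407, 100134 and 102010. The cKO libraries lay close together and CTRL_3.4 reached their level, so that the conditions overlapped. In limma its log2 fold change was 0.18 (95% interval -0.07 to 0.42, adjusted p 0.444). Gm20489, a gene model on the same strand, shares 728 exonic bases with Il2rg, so its reads could be split between both.

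Il7r, the alpha chain of the receptor for IL-7, was at 30097, 26675 and 32625 normalized counts in the Control libraries. It was at 33297, 34516 and 40369 in the cKO libraries. Each cKO library was above each Control library, but KO_7.8 exceeded CTRL_5.6 by less than the spread within a condition. The mean was 121% of Control, with a log2 fold change of 0.27 (SE 0.12, p 0.0496, adjusted p 0.298, limma). Without KO_7.8 and CTRL_5.6 together it was 0.40 with an adjusted p of 0.0329 by limma. In that fit of 2 against 2 libraries 1485 genes passed the threshold, and its libraries were picked after the data had been seen. The quotient of the normalized counts of Il7r and Il2rg, which is not scaled by length and serves only to compare the conditions, was 0.337 ± 0.0640 in Control and 0.357 ± 0.0339 in cKO (exact permutation p 0.8, two-sided). The other ratios of partner chains below are of the same kind.

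Il2rb, which IL-2 and IL-15 share, was at 31034, 32967 and 16481 normalized counts in the Control libraries. The cKO libraries were at 24103, 37660 and 30933. CTRL_5.6 was the lowest of the 6 and its distance from the other Control libraries was larger than the difference of the means. Its fold change on the log2 scale was 0.25 (95% interval -0.44 to 0.93, adjusted p 0.744, limma), and it turned to -0.07 without CTRL_5.6.

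Il2ra, the CD25 chain, was at 23484, 20310 and 11219 normalized counts in the Control libraries. It was at 16941, 21923 and 14774 in the cKO libraries. The conditions overlapped fully, and CTRL_5.6 was again the lowest library. Il2ra had a log2 fold change of 0.01 (95% interval -0.67 to 0.69, adjusted p 0.991, limma) and was -0.31 without CTRL_5.6 and -0.14 without KO_9.10. Its sign was also negative by edgeR, by DESeq2 and after quantile normalization.

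Il2ra and Il2rb were set beside genes of regulatory T cells, library by library, with no test. Foxp3, the factor that defines these cells, was at 7038, 6559 and 3605 normalized counts in the Control libraries, and at 6820, 7666 and 5489 in the cKO libraries. Ikzf2, which encodes Helios, was at 18591, 15430 and 6396 in Control and at 14412, 23687 and 12704 in cKO, in the same order of libraries. For Foxp3, Ikzf2, Il2ra and Il2rb alike, CTRL_5.6 was the lowest of the 6, and KO_9.10 was the highest of the cKO libraries. The order of the other libraries differed, since Il2rb was lowest of cKO in KO_7.8 and Foxp3 and Ikzf2 in KO_11.12. CTRL_5.6 was also the lowest library for Jak3, Il18rap, Tbx21 and Cish. Il7r, which regulatory T cells are known to carry at low levels, was by contrast highest of the Control libraries in CTRL_5.6. Of the 12 regulatory T cell markers none passed the threshold by limma or edgeR, and 1, Capg, did by DESeq2, against 7.81% of all tested genes. By limma 2 were at an unadjusted p under 0.05, against 16.7% of all tested genes. Capg, an actin-capping protein, was at 17692 ± 4434 in Control and 33741 ± 2983 in cKO (SD, n = 3, limma adjusted p 0.0882). Izumo1r, a folate receptor family member on regulatory T cells, was at 22886 ± 2251 and 16737 ± 2907 (limma adjusted p 0.204). The ratio of Il2ra to Il2rb was 0.684 ± 0.0704 in Control and 0.588 ± 0.113 in cKO (exact permutation p 0.3, two-sided).

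**Figure D2:**
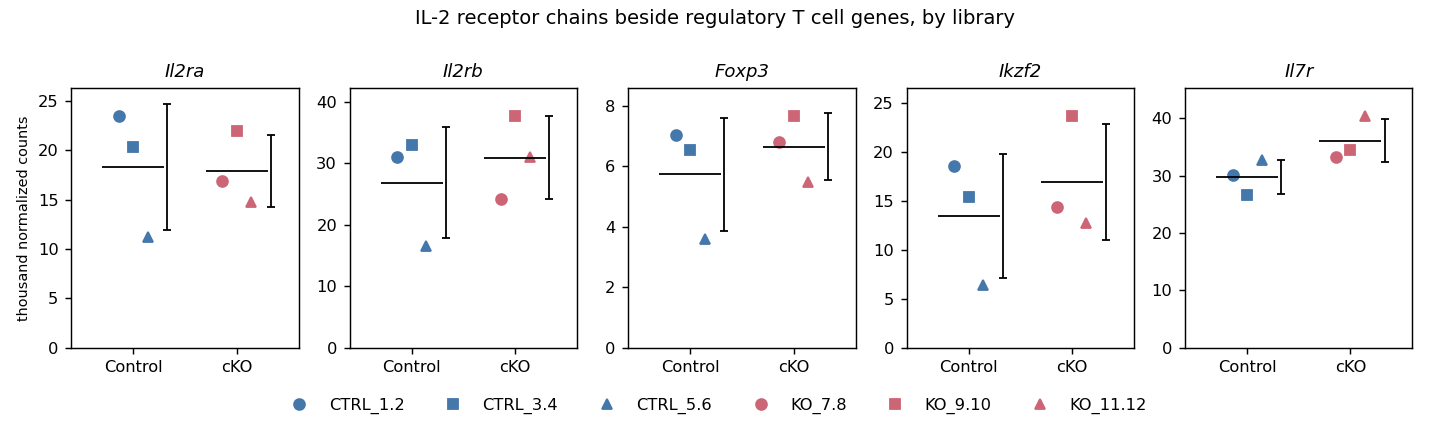
Normalized counts on the vertical axis of Il2ra, Il2rb, Foxp3, Ikzf2 and Il7r by library, with blue for Control, red for cKO, 1 marker shape per library, a line at the mean and a bar of 1 SD. CTRL_5.6 (blue triangle) is the lowest library in the first 4 panels and the highest Control library for Il7r.

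Il4ra, which binds IL-4 and is also part of the IL-13 receptor, was at 18524, 21769 and 17075 normalized counts in the Control libraries. It was at 14744, 19488 and 25006 in the cKO libraries. The cKO libraries spanned the whole range of Control, from below to above it. Il4ra had a log2 fold change of 0.02 (95% interval -0.45 to 0.49, adjusted p 0.976, limma), and turned to -0.06 without CTRL_5.6 and -0.17 without KO_11.12. The ratio of Il4ra to Il2rg, not scaled by length, was 0.213 ± 0.00965 in Control and 0.196 ± 0.0492 in cKO (exact permutation p 0.6, two-sided). A gene model on the opposite strand, Gm44876, shares 571 exonic bases with Il4ra, and the sources used here do not say whether counting used strand.

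Il21r was at 15041, 18070 and 18871 normalized counts in the Control libraries. In the cKO libraries it was at 19055, 18657 and 19647. The cKO values were close together and overlapped the highest Control library. Il21r had a log2 fold change of 0.15 (95% interval -0.10 to 0.40, adjusted p 0.537, limma), which was 0.05 without CTRL_1.2.

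Il6ra, the chain that binds IL-6, was at 24444, 24764 and 23625 normalized counts in the Control libraries. It was at 18208, 19689 and 23178 in the cKO libraries. Every cKO library was below every Control library, KO_11.12 by less than the spread between cKO libraries. The mean was 83.9% of Control (log2 fold change -0.26, SE 0.11, p 0.0436, adjusted p 0.283, limma). Gm42809, on the opposite strand, shares 242 exonic bases with Il6ra.

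Il6st, which encodes gp130, was at 37743, 41938 and 31128 normalized counts in the Control libraries. The cKO libraries were at 21924, 25842 and 31173. KO_11.12 and CTRL_5.6 had nearly the same value, and the other cKO libraries were below all of Control. The mean was 71.2% of Control, the lowest of the 10 chains, with a log2 fold change of -0.49 (SE 0.16, p 0.0195, adjusted p 0.212, limma). Without KO_7.8 and CTRL_5.6 together the log2 fold change was -0.49, with an adjusted p of 0.0138 by limma. Both chains of the IL-6 receptor thus had lower means in cKO, and the ratio of Il6ra to Il6st was 0.666 ± 0.0857 in Control and 0.779 ± 0.0458 in cKO (exact permutation p 0.2, two-sided).

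Ifngr1 had the largest difference of the 10 chains. It was at 20050, 22982 and 20470 normalized counts in the Control libraries. It was at 38794, 35256 and 29031 in the cKO libraries, so that the lowest cKO library stood clear of the highest Control library. The means were 21167 ± 1586 and 34360 ± 4943 (SD, n = 3), 162% of Control. The log2 fold change was 0.69 (SE 0.13, 95% interval 0.39 to 0.99, p 0.000956) and the adjusted p by limma was 0.067, above the threshold. It was 0.70 with an adjusted p of 8.43e-05 by DESeq2, which called 859 genes in all. Leaving out each library in turn gave 0.60 to 0.81, with adjusted p from 0.0863 to 0.262 by limma, and leaving out KO_7.8 and CTRL_5.6 together gave 0.58 with an adjusted p of 0.00561. Ifngr1 was highest in KO_7.8, the library with the high myeloid marker sum, and was above Control in both other cKO libraries as well. The summed level of 8 dendritic cell markers was also higher in every cKO library, at 20247, 5728 and 6535 normalized counts against 3443 to 5014 in Control, with 7 of 7 tested markers positive and a median log2 fold change of 1.17. Its part in the Ifngr1 difference was not tested.

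Ifngr2 overlapped between the conditions. This partner, the signalling chain of the interferon gamma receptor, was at 4766, 5022 and 6922 normalized counts in the Control libraries and at 6551, 4571 and 5344 in the cKO libraries (log2 fold change -0.02, 95% interval -0.46 to 0.42, adjusted p 0.98, limma). The ratio of Ifngr1 to Ifngr2 was 4.21, 4.58 and 2.96 in the Control libraries and 5.92, 7.71 and 5.43 in the cKO libraries, in the same order. All cKO ratios were above all Control ratios. The exact two-sided permutation p was 0.1, the smallest that 3 against 3 libraries can give, and 0.6 after Benjamini-Hochberg adjustment over 8 ratios of partner chains, the same adjusted value as for the ratios of Il2ra to Il2rb, Il6ra to Il6st and Il18r1 to Il18rap. Ifng itself, the ligand, was at 186 and 238 normalized counts on average (adjusted p 0.483, limma).

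**Figure D3:**
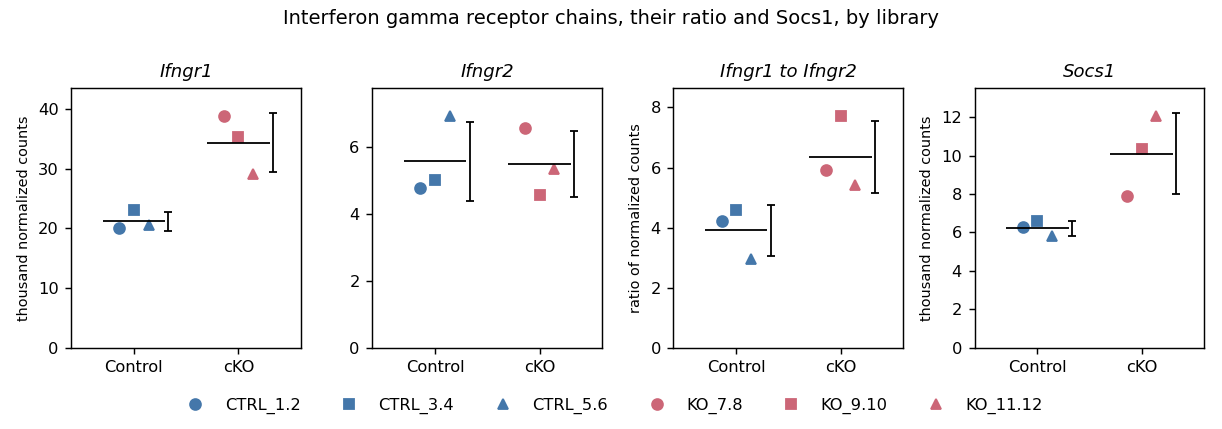
Normalized counts on the vertical axis of Ifngr1, Ifngr2 and Socs1 and the ratio of Ifngr1 to Ifngr2, by library, with blue for Control, red for cKO, 1 marker shape per library, a line at the mean and a bar of 1 SD. Ifngr1, the ratio and Socs1 have all cKO points above Control, and Ifngr2 overlaps.

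Il18r1, the IL-18 binding chain, is the least abundant of the 10 and is known from type 1 helper cells and NK cells. It was at 1856, 1605 and 1352 normalized counts in the Control libraries. It was at 1589, 2469 and 2243 in the cKO libraries, the first of which lay inside the Control range. Il18r1 had a log2 fold change of 0.38 (95% interval -0.09 to 0.84, adjusted p 0.397, limma), and 0.25 to 0.56 when each library was left out in turn. It was 0.45 with an adjusted p of 0.0145 without KO_7.8 and CTRL_5.6 together. Its partner Il18rap was at 2778, 3751 and 1785 in Control and at 3522, 6657 and 5234 in cKO (log2 fold change 0.91, adjusted p 0.236, limma). The ratio of Il18r1 to Il18rap was 0.618 ± 0.170 in Control and 0.417 ± 0.0414 in cKO (exact permutation p 0.3, two-sided). The sum of NK cell markers was higher in all cKO libraries too, but not every marker rose. Of 7 tested NK cell markers 5 had positive log2 fold changes, with a range from -0.32 to 1.44. Ncr1, a receptor that defines NK cells, was at 98.3 and 272 normalized counts on average. Klrk1 and Nkg7, which memory T cells also express, were at 1381 and 2803 and at 9409 and 19086.

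**Figure D4:**
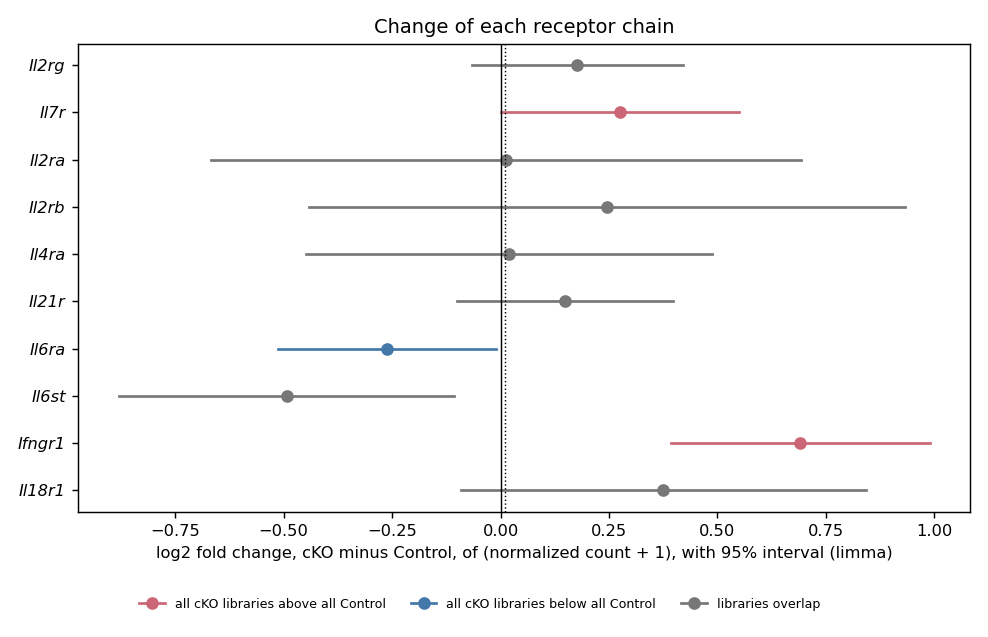
The log2 fold change of each receptor chain, cKO minus Control, on the horizontal axis with its 95% interval from limma, coloured by whether all cKO libraries were above (red) or below (blue) all Control libraries or overlapped (grey). The solid line is 0 and the dotted line the median of 0.01 over all tested genes, and Ifngr1 has the interval farthest from 0.

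The remaining receptor chains of the cytokine network were read from a list of 32 genes, 29 of which were tested. None passed the threshold by limma or by edgeR, and DESeq2 called 3, Il1r1, Csf2rb and Il27ra, against 7.81% of all tested genes. By limma 8 were at an unadjusted p under 0.05, against 16.7% of all tested genes. The median log2 fold change was 0.23 and 20 of the 29 were positive. Il27ra, which pairs with gp130 for IL-27, was at 12299 to 12789 normalized counts in Control and at 10178 to 10642 in cKO, with no overlap (log2 fold change -0.27, adjusted p 0.145, limma). Il1r1, a receptor for IL-1, was at 90.1 to 134 in Control and 165 to 271 in cKO (1.01, adjusted p 0.16). Csf2rb, the shared beta chain of the receptors for IL-3, IL-5 and GM-CSF, was at 302 to 395 in Control and at 1889, 502 and 645 in the cKO libraries (1.27, adjusted p 0.246). Csf2rb has a near-identical copy, Csf2rb2, so its count is uncertain, and it is a gene of myeloid cells whose highest value fell in KO_7.8.

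Downstream of the receptors, the 11 JAK kinases and STAT factors had a median log2 fold change of -0.09, with 3 positive. None was called by limma (1 at an unadjusted p under 0.05, against 16.7% of all tested genes) or edgeR. DESeq2 called 1, against 7.81% of all tested genes. Jak1, which most of these receptors use, was at 140482 ± 9272 in Control and 125069 ± 5302 in cKO (adjusted p 0.438, limma), with each cKO library below each Control library. Jak3, the kinase bound to the common gamma chain, was at 10970 ± 3185 and 10592 ± 1573. Stat3, the factor used by IL-6 and IL-21, was at 50184 ± 8649 and 55997 ± 1640.

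Of 19 inhibitors of cytokine signalling none was called by limma (5 at an unadjusted p under 0.05, against 16.7% of all tested genes) or edgeR. DESeq2 called 4, Socs1, Socs2, Cish and Pias1, against 7.81% of all tested genes. Socs1, the feedback inhibitor of interferon gamma and common gamma chain signals, was at 5804 to 6577 normalized counts in Control and at 7887 to 12065 in cKO (log2 fold change 0.68, adjusted p 0.118, limma). Socs2 was at 1129 to 2002 and 2460 to 3758 (0.94, adjusted p 0.143), and Cish, induced by STAT5, at 769 to 1296 and 1402 to 2354 (0.82, adjusted p 0.205). Pias1, an inhibitor of STAT factors, was at 18726 to 20084 in Control and 15101 to 16428 in cKO (-0.30, adjusted p 0.139). The conditions did not overlap for any of these 4, nor for 5 of the 19 in all, against 24.1% of all tested genes.

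Among 20 genes known as targets of cytokine signals, limma and edgeR called 0, and DESeq2 called 6, against 7.81% of all tested genes. By limma 10 were at an unadjusted p under 0.05, against 16.7% of all tested genes. Socs1 and Cish, named above as inhibitors, are in this list too and are among the 6. Bcl2, the survival factor that IL-7 maintains, was at 9687, 9746 and 6883 normalized counts in the Control libraries and at 11764, 17322 and 19210 in the cKO libraries (log2 fold change 0.86, adjusted p 0.133, limma). Gzmb, a protease of effector and regulatory T cells, was at 359 to 633 in Control and 930 to 1505 in cKO (1.33, adjusted p 0.0807). Myc, the growth regulator induced by IL-2, was at 10329 to 12803 in Control and 7160 to 8750 in cKO (-0.53, adjusted p 0.111). Bcl2, Gzmb and Myc each separated the conditions without overlap, as did 7 of the 20 in all, against 24.1% of all tested genes. The median over the 20 genes was 0.28, with 16 positive.

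Transcription factors that are known to act on Il7r were also read, 12 in all, with 0 called by limma or edgeR. DESeq2 called 1, Foxp1, against 7.81% of all tested genes. By limma 2 were at an unadjusted p under 0.05, against 16.7% of all tested genes. Foxp1, a repressor of Il7r that keeps T cells quiescent, was at 29816, 29636 and 35982 normalized counts in the Control libraries and at 20324, 20799 and 23619 in the cKO libraries (log2 fold change -0.56, adjusted p 0.0857, limma). Foxo1, which activates Il7r, was at 5813 ± 677 and 4975 ± 300 (adjusted p 0.375), Runx3 at 3407 ± 372 and 4114 ± 120 (0.254), and Tcf7 at 74284 ± 9725 and 60836 ± 6016 (0.332). All Foxp1 values of cKO were below those of Control, and all Runx3 values above. These were the 2 of the 12 without overlap, against 24.1% of all tested genes.

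The ligands were scarce in these cells, as 5 of 13 reached the level for testing, with 0 called by limma, edgeR or DESeq2. By limma 3 of the 5 were at an unadjusted p under 0.05, against 16.7% of all tested genes. Il2 was at 266 to 314 normalized counts in Control and 372 to 423 in cKO (adjusted p 0.189, limma). Lif, a ligand that signals through gp130, was at 67.0 and 147 on average (adjusted p 0.173). Il7 lay between 7.55 and 25.3 in all 6 libraries. Of the proteases that shed receptor chains, Adam17 was at 7875 ± 299 and 8607 ± 480 and Adam10 at 23332 ± 3643 and 24201 ± 1132, and none of the 5 tested genes of that list was called by limma, edgeR or DESeq2 or had an unadjusted p under 0.05 by any of them.

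Genes of the naive and memory states were read as the setting of these values. Of 14 tested genes of activated and memory T cells 4 rose in cKO by limma, S100a6, Anxa2, Lgals1 and Id2, against 0.673% of all tested genes. The same 4 were called by edgeR and 8 by DESeq2, against 1.02% and 7.81% of all tested genes. S100a6, a calcium-binding protein of memory cells, was at 3480 to 4230 in Control and 8709 to 10716 in cKO (log2 fold change 1.32, adjusted p 0.00558). Id2, a regulator of effector cells, was at 18092 to 20553 and 27975 to 32643 (0.67, adjusted p 0.0378). Of 10 genes of naive T cells 1 rose by limma, Igfbp4, at 14821 to 16374 and 27534 to 37889 (1.07, adjusted p 0.0218). The median log2 fold change of those 10 was -0.15, with 3 positive, and DESeq2 called Igfbp4 and, with negative fold changes, Foxp1 and Satb1. Among 7 tested dendritic cell markers Zbtb46 rose as well, from 703 ± 55.9 to 1412 ± 151 (adjusted p 0.023, limma).

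Splicing was measured as the percent of transcripts that include an exon or a part of it, from reads on junctions and exons divided by the length of each form. Of the 117 events of the 10 genes, 110 were covered by 20 reads or more on average in each condition and were tested. There were 75 skipped exons, 28 pairs listed as mutually exclusive exons, 6 alternative donors and 1 alternative acceptor, and no retained intron. None was called as differentially spliced, at an FDR under 0.01 and a difference of at least 10 points. Over all genes 0.465% of 55912 events were called, or 0.495% of skipped exons, 0.25% of mutually exclusive pairs, 0.584% of alternative acceptors, 1.08% of alternative donors and 0.181% of retained introns. At an unadjusted p under 0.05 there were 11 of the 110 (3 each of Il7r and Il21r, 2 of Il2ra, and 1 each of Il2rb, Il2rg and Il6st), against 9.49% of all events. The 11 are not all separate observations, since events of 1 gene can count the same reads. The 2 of Il2ra list the same skipping reads.

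Of the skipped-exon events, the differences were at most 0.07 points for Il2rg (6 events), 0.181 for Il2rb (8), 0.212 for Il6ra (5), 0.37 for Il6st (8), 0.564 for Il7r (9) and 0.645 for Il4ra (5). They reached 1.68 points for Il2ra (8) and for Il21r (15), 2.38 for Ifngr1 (6) and 9.65 for Il18r1 (5). The value of Ifngr1 is that of a 99-base exon of a non-coding transcript, with a p of 0.764. The minor forms of which the reads gave a measure are shown by sequence, so that a reader can see which part of each receptor they touch. Sequences are from the GENCODE M21 transcripts, build GRCm38, 5′ to 3′ on the strand of the gene.

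The exon of Il21r below is the coding exon 3 of 9 at chr7:125625265-125625367, plus strand, and is shown because its skipping had the lowest p of the skipped-exon events. It is 103 bases long, which is not a multiple of 3, and the second line shows the transcript without it, from the last 20 bases of exon 2 to the first stop codon in frame, in capitals.
Il21r exon 3: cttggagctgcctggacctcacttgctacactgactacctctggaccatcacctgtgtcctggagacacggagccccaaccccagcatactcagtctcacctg
Il21r without exon 3: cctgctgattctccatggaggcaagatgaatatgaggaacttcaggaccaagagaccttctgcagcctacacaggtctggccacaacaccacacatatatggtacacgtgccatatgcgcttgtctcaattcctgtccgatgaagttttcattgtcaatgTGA
The annotated reading frame of 529 codons would end after 63 codons in the skipped form.

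This skipped form was rare, and each cKO value exceeded each Control value. Reads of skipping numbered 16, 15 and 11 in the Control values and 33, 41 and 41 in the cKO values, beside 1294, 1832 and 1300 and 1472, 2071 and 2260 reads of inclusion. Inclusion was 97.95%, 98.63% and 98.59% in Control and 96.35%, 96.76% and 97.02% in cKO, with no overlap. The difference was -1.68 points (means 98.4 ± 0.382 and 96.7 ± 0.341, SD, n = 3; p 0.00641, FDR 0.194, quasi-binomial test). The Il21r event of smallest p, a mutually exclusive pair of the same exon with the next, gave -1.76 points (p 0.00308, FDR 0.0909), and its pair with the exon before gave 4.26 points (p 0.00744, FDR 0.155). Those 3 events count the same reads in part and are not separate observations. Exon 7 of 9 of Il21r, a coding exon of 97 bases at chr7:125629738-125629834, was skipped more often, with 52 to 177 reads of skipping per value. Its inclusion was 87.28%, 92.17% and 94.25% in Control and 90.19%, 88.32% and 90.62% in cKO (p 0.154, FDR 0.692), and the conditions overlapped. The values of a condition carry no library names in the splicing tables, so they could not be set beside the libraries.

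The transcripts of Il7r, Ifngr1, Il6ra and Il4ra have a second form each. For Il7r and Ifngr1 the capitals mark the bases between alternative donors, at the end of exon 7 of 8 (chr15:9508707-9508782, minus strand) and of exon 2 of 7 (chr10:19597416-19597530, plus strand). In each the capitals open with the letters GTAA, so that a donor reading GT lies inside the exon. For Il6ra they mark the bases between acceptors at the start of exon 7 of 10 (chr3:89878849-89878895, minus strand). For Il4ra they mark the stop codon that an extra exon brings into frame (chr7:125571934-125571953, plus strand).
Il7r exon 7: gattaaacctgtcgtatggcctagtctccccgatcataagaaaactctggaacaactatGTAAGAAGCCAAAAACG
Ifngr1 exon 2: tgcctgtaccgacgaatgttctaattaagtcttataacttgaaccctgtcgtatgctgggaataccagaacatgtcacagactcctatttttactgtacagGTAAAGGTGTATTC
Il6ra exon 7: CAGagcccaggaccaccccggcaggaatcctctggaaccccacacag
Il4ra extra exon, start: caagtaatgaaaatctgTGA

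The extra exon of Il4ra, 114 bases in all, ends the reading frame after 5 codons of its own and is the known source of soluble IL-4 receptor in the mouse. It was included in 10.9%, 8.70% and 12.2% of transcripts in the Control values and in 12.3%, 9.47% and 11.3% in the cKO values. The conditions overlapped, and the means differed by 0.46 points (p 0.579, FDR 0.747). The lowest p of an Il4ra event, 0.163, was of an exon in the 5′ UTR with 0 to 3 reads of inclusion per value.

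The tandem acceptor of Il6ra adds or drops the 3 bases CAG and keeps the frame. The upstream acceptor was used in 34.4%, 36.5% and 35.4% of transcripts in Control and in 38.1%, 36.3% and 36.6% in cKO (p 0.37, FDR 0.8), with 408 to 658 reads per value for the longer form. Values of the conditions overlapped.

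The donor of Il7r that leaves out 17 bases shortens the annotated frame from 459 to 286 codons. The full exon was used in 98.04%, 96.06% and 96.9% of transcripts in Control and in 95.99%, 95.32% and 96.9% in cKO (p 0.165, FDR 0.625). For Ifngr1 the donor that leaves out 14 bases ends the frame after 75 of 477 codons. In the best covered of 3 such events the full exon was used in 97.3 ± 1.24% and 97.5 ± 0.341% of transcripts (p 0.941). A further 99-base exon of Ifngr1 in a non-coding transcript was included in 1.45%, 0.816% and 1.37% in Control and in 0.716%, 0.883% and 0.829% in cKO (p 0.122, FDR 0.692), beside 1121 to 2969 reads of skipping.

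**Figure D5:**
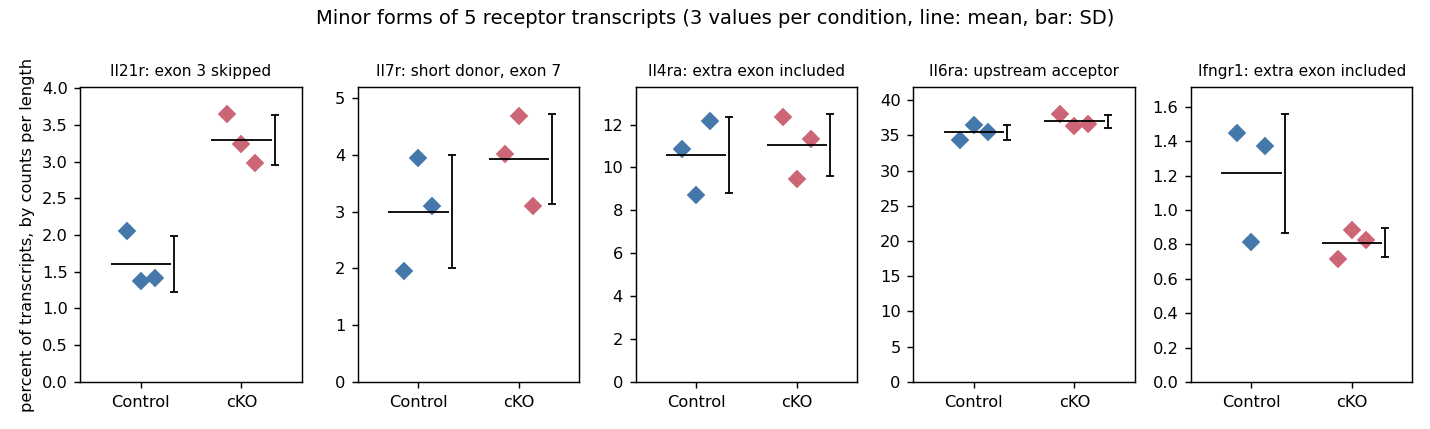
Percent of transcripts, by counts per length, with the minor form of 5 receptor transcripts, as 3 values per condition (blue Control, red cKO) with a line at the mean and a bar of 1 SD. Skipping of Il21r exon 3 does not overlap between conditions but stays under 4%, and the other forms overlap.

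The largest difference of a tested event, 9.65 points, was in the first exons of Il18r1, in the 5′ UTR. Inclusion of a 197-base exon was 82.8%, 76.4% and 87.3% in Control and 91.5%, 90.4% and 93.6% in cKO. It rested on 2 to 6 reads of skipping per value and had a p of 0.167 and an FDR of 0.692. A shorter form of that exon, which ends at an earlier donor, went the other way, from 94.4 ± 5.05% to 86.6 ± 3.89% (p 0.288), also on 0 to 10 reads of skipping. A 159-base exon of Il18r1 (chr1:40491058-40491216) was skipped in 0, 1 and 0 reads in Control and in 4, 0 and 2 in cKO (-2.89 points, p 0.302, FDR 0.692). The longer form at an alternative donor of its first exons made up 48.5 ± 6.72% and 45.7 ± 3.53% of transcripts (p 0.636).

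For the other members the event of smallest p differed by little. Exon 6 of Il2ra, 72 coding bases at chr2:11683054-11683125, was left out together with the 72-base exon before it. Such reads numbered 0, 2 and 0 in Control and 2, 13 and 2 in cKO (-1.68 points, p 0.024, FDR 0.408, quasi-binomial test). Reads that skip exon 6 alone numbered 4, 3 and 0 in Control and 2, 10 and 9 in cKO. Those gave -0.53 points with overlapping conditions (p 0.113, FDR 0.692, same test). A coding exon of Il6st (chr13:112501113-112501209) was skipped in 0, 0 and 0 and in 0, 3 and 6 reads (-0.37 points, p 0.0167, FDR 0.333), and exon 2 of Ifngr1 in 0, 0 and 0 and in 0, 2 and 8 (-0.12 points, p 0.0642, FDR 0.624). A coding exon of Il18r1 (chr1:40484281-40484343) was skipped in no Control read and in 1, 1 and 5 cKO reads (-1.57 points, p 0.0835, FDR 0.672). In these 4 exons skipping was read in cKO in numbers of at most 13, beside 83 to 5285 reads of inclusion per value. Pairs listed as mutually exclusive gave the lowest p for Il7r (-0.70 points, p 0.0194, FDR 0.269), Il2rb (-0.13 points, p 0.0342, FDR 0.36) and Il2rg (-0.54 points, p 0.00884, FDR 0.175). For Il6ra it was an exon with 2 reads of skipping in all (0.04 points, p 0.272, FDR 0.692).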

How the data were processed

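Per the submitters' notes and methods, adapters were cut with cutadapt, STAR was the aligner (GRCm38, mm10), featureCounts counted reads per gene and rMATS listed splicing events; annotation release and strand setting: not given in the sources used here. As deposited, the authors' signal is the count per gene divided by a DESeq2 size factor, and 100% of its values were whole reads within 0.01 of a read once rescaled. Same-condition libraries differed beyond sampling noise. The deposited rMATS tables, which the authors made from reads on junctions and exons (other unit: comma-separated counts), hold 3 values per condition without library names, and the first sample set was read as Control from the study's definition of the difference. The authors' own comparison (log2 fold changes and p-values) was not used, and 0 sample columns were unmapped.

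Expression was tested with limma 3.58.1 (trend) on log2(normalized count + 1), so folds are on that scale, for named genes that averaged 100 or more in either condition, with Benjamini-Hochberg adjustment. edgeR 4.0.16 and DESeq2 1.42.0 on the whole reads were alternatives. Per-kilobase levels used merged exon lengths of GENCODE M21, found for 10993 of 11001 tested genes. Events were tested with a quasi-binomial model whose dispersion was moderated within each class and held at 1 or more, with FDR by Benjamini-Hochberg within the class. The 8 ratios of partner chains were tested by exact permutation. The scripts were tested on simulated data. Members and lists were chosen with earlier results of these data known. Text names all members, Cd2bp2, of each list the called genes or otherwise up to 4 of smallest p, and of each member the event of smallest p; Jak3, Stat3, Ifngr2, Ifng, Foxp3, Ikzf2, Ncr1, Klrk1, Nkg7, Il7 and the alternative forms shown by sequence were named after their values were seen. Labels name separate libraries; p-values measure the spread between these. The values of 1 listed gene are not reported here.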

Additional observations from a re-analysis of the deposited data

How the results depend on the processing

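The count of 0 receptor chains called by limma was also 0 with a pseudocount of 10, with no filter, with the level of 100 asked of both conditions, by edgeR, after quantile normalization, with a robust prior and in all 6 fits without 1 library. It was 1 by DESeq2 (Ifngr1, adjusted p 8.43e-05) and 4 without KO_7.8 and CTRL_5.6 together, an alternative chosen after seeing the data (Il7r, Il6st, Ifngr1 and Il18r1). That fit had 2 libraries a condition, and 1485 of all tested genes passed in it; taking out libraries that stand apart lowers the spread by its construction. Il2ra changed sign to -0.0504 by edgeR, -0.0366 by DESeq2, -0.0351 after quantile normalization, -0.308 without CTRL_5.6, -0.145 without KO_9.10 and -0.279 without KO_7.8 and CTRL_5.6. Il4ra changed sign to -0.0079 after quantile normalization, -0.0575 without CTRL_5.6 and -0.167 without KO_11.12, and Il2rb to -0.0736 without CTRL_5.6. The other 7 chains kept their sign in all 14 alternatives. Of 140 values of single chains 125 stayed on their side of the threshold with their sign. The count of 0 member events was 0 in every alternative. The largest difference of a tested member event was 9.65 points, so a dispersion prior over all events could not call any. Member events added by a minimum of 10 reads differed by 8.10 and 5.94 points, so that alternative could not call any either. Limma on the logit called 0 events of any gene, so it bears on no member. No paired analysis was possible because the labels give no replicate numbers that the conditions share. With 3 libraries a condition, the intervals above limit what was detectable, and events with few reads of the rarer form carry a large counting error where their total is low.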
